A study of Rattus norvegicus with 12 samples.

Results

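The change in gene expression between 0.5 h and 9 h after a sciatic nerve injury was measured in rat dorsal root ganglia, the clusters of sensory neuron cell bodies beside the spinal cord. The comparison takes the 3 arrays that the labels place at 9 h and the 3 arrays that they place at 0.5 h, 6 of the 12 arrays of the series. The other arrays, 3 at 3 h and 3 at 6 h, entered the estimate of the spread of each gene and are shown where they place a change in time. One probe per gene name was used, and 21477 genes could be tested.

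The animals were 24 male Sprague-Dawley rats, a common outbred laboratory strain, in 4 groups of 6. All were anaesthetised with the same drug mixture and lost a 1 cm piece of the left sciatic nerve at mid-thigh, and the groups differed in the time until the ganglia were taken. The labels give no age, and they do not say which rats or how many went onto each array. The spread behind each p-value is that between arrays, and nothing says that the 3 arrays of a time came from separate animals, so it may be partly technical. There is no labelled uninjured or sham-operated group, so a difference is between an early and a later time after the same operation. The labels do not give the hour of the day at which ganglia were taken, and the time since anaesthesia and incision rises with the time since the nerve was cut.

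When a peripheral nerve is cut, the sensory neurons that lost their axon switch over hours to days from a transmitting to a regenerating state. Transcription factors such as ATF3, JUN and SOX11 are well known parts of that switch. Immediate early genes, which need no new protein to be transcribed, respond to stress and activity within minutes and then decline. Satellite glia, Schwann cells, vessels and resident macrophages share the ganglion with the neurons, and injured neurons and glia release chemokines such as CCL2.

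The labelled tissue was checked on genes that mark nociceptors, the pain-sensing neurons. Levels are log2 intensity relative to the 75th percentile of the array, so that 0 is that percentile. Calca, which encodes the peptide CGRP, lay at 6.58, 6.91 and 6.76 on the 0.5 h arrays and at 6.82, 6.65 and 6.76 on the 9 h arrays. Scn10a, the sodium channel Nav1.8 of nociceptors, lay at 4.69, 4.75 and 4.66 at 0.5 h and at 4.87, 4.83 and 4.89 at 9 h. Both genes lay above the 75th percentile on each of these arrays. A signal well above background was required of every tested gene.

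The arrays of the 2 times differed in their background. At 0.5 h the local background around a spot had a median of 64 to 86 intensity units, and at 9 h of 37 to 41, and 64.1 to 68.3% of spots were well above background at 0.5 h against 85.4 to 85.9% at 9 h. The signal at the 75th percentile was 1891 to 1977 at 0.5 h and 1950 to 2034 at 9 h. The 3 arrays of 0.5 h shared a slide and a scan day, and the 3 of 9 h shared a different slide and day, so that slide, scan day and time cannot be told apart. Correlations across genes were 0.988 to 0.995 between arrays of the same time and 0.983 to 0.986 between the times, where genes are not independent replicates.

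Of the 21477 genes, 6797 (31.6%) differed between 9 h and 0.5 h at an adjusted p under 0.05 (limma, Benjamini-Hochberg), and these are referred to as called. At 9 h 3619 genes (16.9%) were higher and 3178 (14.8%) were lower. Most differences were small, and 214 of the higher and 269 of the lower genes changed at least 2-fold. For 10229 genes (47.6%) no array of either time fell within the range of the other, with 9 h above for 26.5% of all genes and below for 21.2%. The share of rises changed with the scaling. When arrays were centred on their medians instead, the median of all genes moved by -0.12 on the log2 scale, and 1750 genes were called higher and 5133 lower. The normexp background correction subtracts the local background of each spot, fits a model to each array and adds an offset of 50. With it 282 genes were called higher and 723 lower. The call held under all 17 alternatives that kept the same genes for 246 higher and 582 lower genes. Of the 145 genes chosen for naming, 82 were called higher and 53 lower. With normexp 93 of these called genes lost their call with the same sign, and the sign of Nr1d2 turned. The genes described first are those that kept their call throughout.

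**Figure D1:**
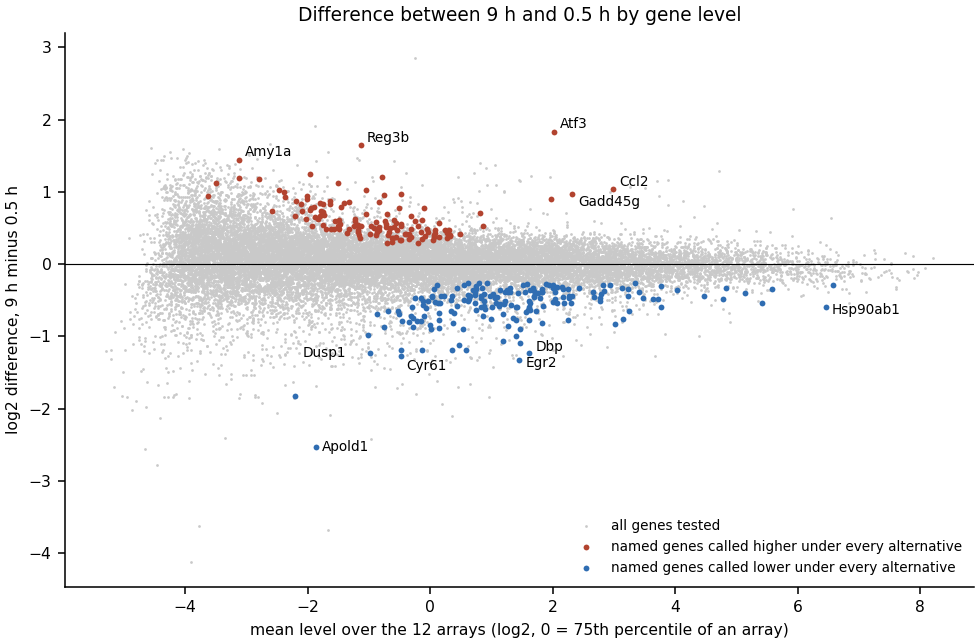
Log2 difference between 9 h and 0.5 h (vertical axis) against the mean level over the 12 arrays (horizontal axis, log2, 0 is the 75th percentile of an array). Each grey point is 1 of 21477 genes, and coloured points are genes with a gene name that were called higher or lower under all 17 alternatives. Atf3 lies at 1.83 and Apold1 at -2.53.

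Atf3, a stress-induced transcription factor and a standard marker of axotomised sensory neurons, rose 3.55-fold. Its level was 1.82, 1.19 and 2.18 on the 0.5 h arrays and 3.63, 3.4 and 3.64 on the 9 h arrays. Every 9 h array was above every 0.5 h array, and the difference was 1.83 (SE 0.22, limma adjusted p = 0.000247). The level was lower at 3 h, at 1.09, and 1.71 at 6 h, so the rise above the 0.5 h level came after 6 h. The probe lies at chr13:107191691-107191749 on the rn4 assembly of the files.

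Reg3b, a secreted C-type lectin known to be induced in sensory neurons by nerve injury, rose 3.13-fold. It lay at -1.95, -1.45 and -1.59 at 0.5 h and at -0.12, 0.0031 and 0.065 at 9 h, again with no overlap (difference 1.65, SE 0.26, limma adjusted p = 0.00138). Its mean was -1.67 at 3 h and -1.16 at 6 h. Ccl2, the chemokine that attracts monocytes, was at 2.72, 2.69 and 2.67 at 0.5 h and at 3.72, 3.85 and 3.62 at 9 h. The 0.5 h arrays were nearly identical, and the difference of 1.04 (SE 0.09, limma adjusted p = 3.35e-05) was far larger than the spread at either time.

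A pair of growth arrest genes of the GADD45 family, which respond to DNA damage and other stress, rose together. Gadd45g was at 2.08, 1.72 and 1.96 at 0.5 h and at 2.93, 2.87 and 2.87 at 9 h, a difference of 0.97 (SE 0.12, limma adjusted p = 0.000338). Gadd45a was at 1.73, 1.43 and 1.69 at 0.5 h and at 2.53, 2.51 and 2.51 at 9 h, a difference of 0.90 (SE 0.08, limma adjusted p = 5.16e-05). For both genes the 9 h arrays lay within a narrow band above all 0.5 h arrays. Other genes that kept their call under every alternative were Amy1a, an amylase (1.44), Irf1, an interferon regulatory factor (0.87), Slc7a5, a transporter of large neutral amino acids (0.87), Car9, a carbonic anhydrase (0.73), Bcl2, a survival gene (0.68), Nrtn, the neurotrophic factor neurturin (0.61), and Hmox1, haem oxygenase (0.50), each as a log2 difference.

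The genes that fell by most and kept the call under every alternative were led by Apold1, an early response gene of vascular endothelium. Its level was 0.25, -0.68 and -0.11 at 0.5 h and -2.80, -2.59 and -2.75 at 9 h. The groups were far apart, with a 5.79-fold fall (difference -2.53, SE 0.22, limma adjusted p = 3.77e-05), most of which was already present at 3 h, where the mean was -1.96. Dbp, a clock-controlled transcription factor, was at 1.87, 1.94 and 2.06 at 0.5 h and at 0.54, 1.23 and 0.41 at 9 h. Its means at 3 h and 6 h were 1.88 and 1.92, so that all of its fall (difference -1.23, SE 0.18, limma adjusted p = 0.000816) lay between 6 h and 9 h. Timp3, an inhibitor of matrix metalloproteinases, fell by 0.85 and Txnip, an inhibitor of thioredoxin, by 0.90 on the log2 scale.

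**Figure D2:**
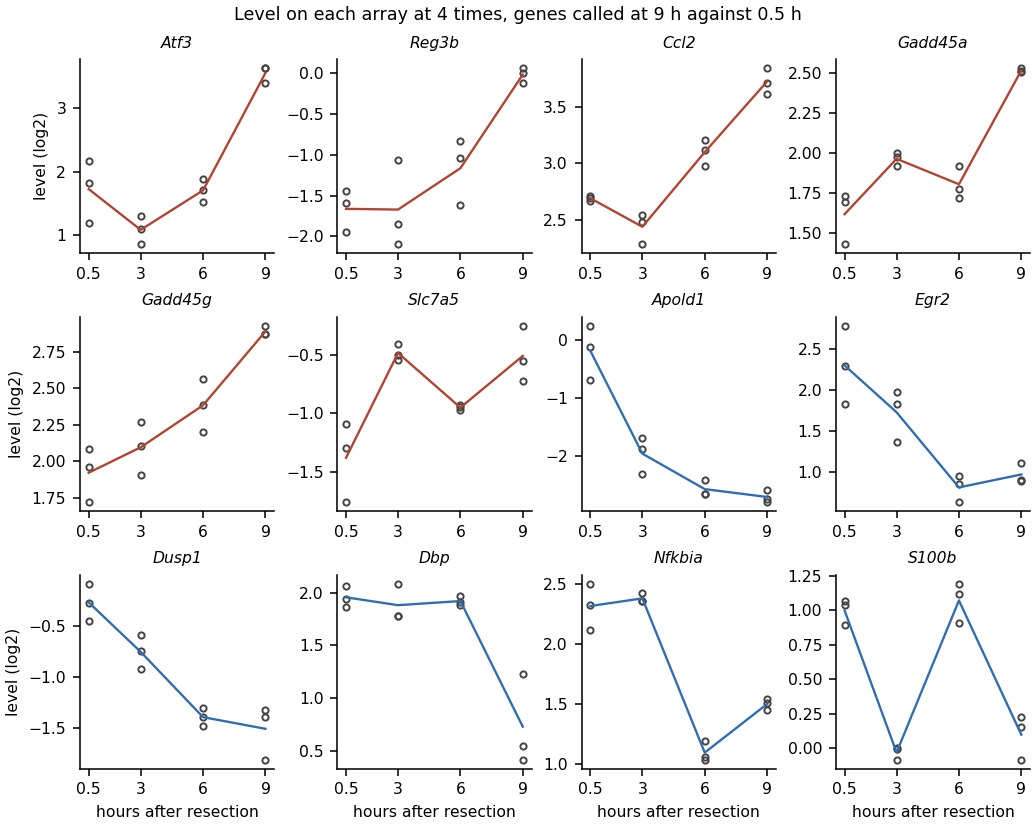
Level of 12 genes on each array (circles, log2, 0 is the 75th percentile of an array) against hours after resection, with a line through the means of 3 arrays, red for genes called higher and blue for genes called lower at 9 h against 0.5 h. Ccl2 lies at 2.67 to 2.72 at 0.5 h and at 3.62 to 3.85 at 9 h, and Dbp stays near 1.9 until 6 h and is lower on every 9 h array. The vertical axes differ between panels.

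Immediate early genes went both ways, with more calls of a fall than of a rise. Of 34 tested, 11 (32.4%, against 14.8% of all genes) were called lower. The 6 called higher (17.6%) were near the share of all genes (16.9%). The median difference was -0.05, against 0.03 for all genes. With other scalings or background the number lower was 5 to 13. Egr2, a zinc finger factor that also drives myelination in Schwann cells, fell from 2.78, 1.83 and 2.28 to 0.91, 1.12 and 0.89 (difference -1.32, SE 0.22, limma adjusted p = 0.00168). Dusp1, a phosphatase that turns off stress kinases, fell from -0.09, -0.45 and -0.28 to -1.81, -1.39 and -1.32 (difference -1.23, SE 0.14, limma adjusted p = 0.000196). In both genes all 9 h arrays were below all 0.5 h arrays. Cyr61, a secreted matrix protein now named Ccn1, fell by 1.27. Gem, a small GTPase, had the largest fall of the list at -2.56, but at a level of -4.75 or less on the 9 h arrays, and its call was lost with normexp (difference -0.90). Fos was not called, with -1.05, -1.68 and -0.47 at 0.5 h and -1.22, -0.85 and -0.41 at 9 h (limma adjusted p = 0.589). The members that rose included Atf3, Gadd45g, Junb (0.67) and Jun (0.57). Jun, an AP-1 factor needed for axon regeneration, rose from 3.18, 2.90 and 3.06 to 3.63, 3.54 and 3.69, and its call was lost with normexp (adjusted p = 0.0981).

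The region before the start of 3 of these genes is shown, picked from named genes whose promoters held a searched motif. Dusp1 and Egr2 fell, and Gadd45g rose. None of the 3 holds the AP-1 site, which was also searched. Most of the 120 named genes with a promoter window held no searched motif. Sequences are RefSeq windows on GRCr8, a newer assembly than rn4, 250 bases long, in lower case with the matched motif in capitals. The search used both strands for the cAMP response element (CRE) TGACGTCA, the AP-1 site TGAGTCA and the E-box CACGTG. The serum response (CArG) box was searched as CCWWWWWWGG, where W is A or T. Dusp1 lies at chr10:17184603-17184852 on the plus strand, and its capitals are a CRE and an E-box. Egr2 lies at chr20:21054442-21054691 on the minus strand, with a CArG box. Gadd45g lies at chr17:13530352-13530601 on the minus strand, with an E-box.
Dusp1: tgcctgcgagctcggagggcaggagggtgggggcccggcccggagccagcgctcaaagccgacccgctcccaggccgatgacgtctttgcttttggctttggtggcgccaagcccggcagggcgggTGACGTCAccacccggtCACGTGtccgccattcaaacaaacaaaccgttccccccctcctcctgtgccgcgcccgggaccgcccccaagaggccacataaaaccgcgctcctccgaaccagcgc
Egr2: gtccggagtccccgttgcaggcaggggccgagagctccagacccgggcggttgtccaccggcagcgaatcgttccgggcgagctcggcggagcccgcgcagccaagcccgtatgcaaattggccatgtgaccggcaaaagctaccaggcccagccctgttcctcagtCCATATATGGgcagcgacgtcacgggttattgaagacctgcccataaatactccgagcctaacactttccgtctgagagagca
Gadd45g: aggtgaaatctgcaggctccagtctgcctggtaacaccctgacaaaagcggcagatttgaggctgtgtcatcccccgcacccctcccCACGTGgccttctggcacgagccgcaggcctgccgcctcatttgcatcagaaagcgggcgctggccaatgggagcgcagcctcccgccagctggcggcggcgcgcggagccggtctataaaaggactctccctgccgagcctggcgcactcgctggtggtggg

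The shares of promoters with each motif are given without a test. Of 8999 tested genes with a promoter window of 300 bases, 3.09% held a CRE, against 3.13% of 1631 genes called higher and 2.97% of 910 called lower. An AP-1 site was in 3.38% of tested promoters, 3.07% of the higher and 3.30% of the lower set. An E-box was in 9.11%, 8.71% and 7.47%, and a CArG box in 1.24%, 0.61% and 0.99%. Of all 27457 RefSeq promoters, 1.91% held a CRE, 4.53% an AP-1 site, 6.65% an E-box and 1.64% a CArG box. A match is a description of letters, not of a bound site.

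Transcription factors known for the injury response rose more often than they fell. Of 25 tested, 8 (32%, against 16.9% of all genes) were called higher and 3 (12%, against 14.8%) lower. The median difference was 0.20, against 0.03 for all genes. Across the other scalings and normexp the number higher was 4 to 8. With normexp the median of the list was 0.114, against 0.115 for all genes. Besides Atf3, Jun and Junb, Sox11, a developmental factor re-expressed after axotomy, was among the largest increases at 1.54 (SE 0.16, limma adjusted p = 0.000133). It lay at -4.14, -4.19 and -3.87 at 0.5 h and at -2.44, -2.64 and -2.50 at 9 h. The arrays did not overlap, but the gene was dim, and with normexp the difference of 1.39 missed the threshold (adjusted p = 0.124). Klf4, a factor that limits axon growth, fell by 0.63, and lost its call when any of 5 of the 6 arrays was left out (adjusted p 0.0646 to 0.123). Stat3, the transcription factor of interleukin-6 signalling, was 0.22 lower, a call that was also lost on leaving out any of 5 arrays (adjusted p 0.0736 to 0.127) and with the mean of its probes, where the difference was 0.0046.

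Genes that act later in the injury response were called higher at a share near that of all genes. Of 35 late effectors, 7 (20%, against 16.9% of all genes) were called higher and 1 (2.86%, against 14.8%) lower, and the median difference was 0.03, that of all genes. With median scaling 6 were higher and 4 lower, and with normexp 2 were higher. Those higher included Reg3b, Gadd45a and Ecel1, a neuronal peptidase of the injury response (1.02), whose call was lost with normexp (adjusted p = 0.151). Gal, the neuropeptide galanin, was at 3.07, 3.08 and 3.06 at 0.5 h and at 3.04, 2.89 and 2.96 at 9 h (difference -0.11, limma adjusted p = 0.446). Gap43, a growth cone protein, was at 5.11, 5.30 and 5.26 at 0.5 h and at 5.54, 5.27 and 5.36 at 9 h (0.16, limma adjusted p = 0.148), with the sign turned under normexp. The 0.5 h and 9 h arrays of Gap43 overlapped. Npy was at 2.04, 3.18 and 4.03 at 0.5 h and at 1.78, 2.32 and 2.56 at 9 h, a spread too wide for its difference of -0.87 to be called (limma adjusted p = 0.299). Vip was not called either (-0.47, limma adjusted p = 0.26), and its sign turned with normexp. Bdnf, a neurotrophin, was at -0.05, 0.32 and 0.21 at 0.5 h and at 0.23, 0.19 and 0.20 at 9 h. Of 21 neuropeptide genes 1 (4.76%) was called higher and 2 (9.52%) were called lower.

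**Figure D3:**
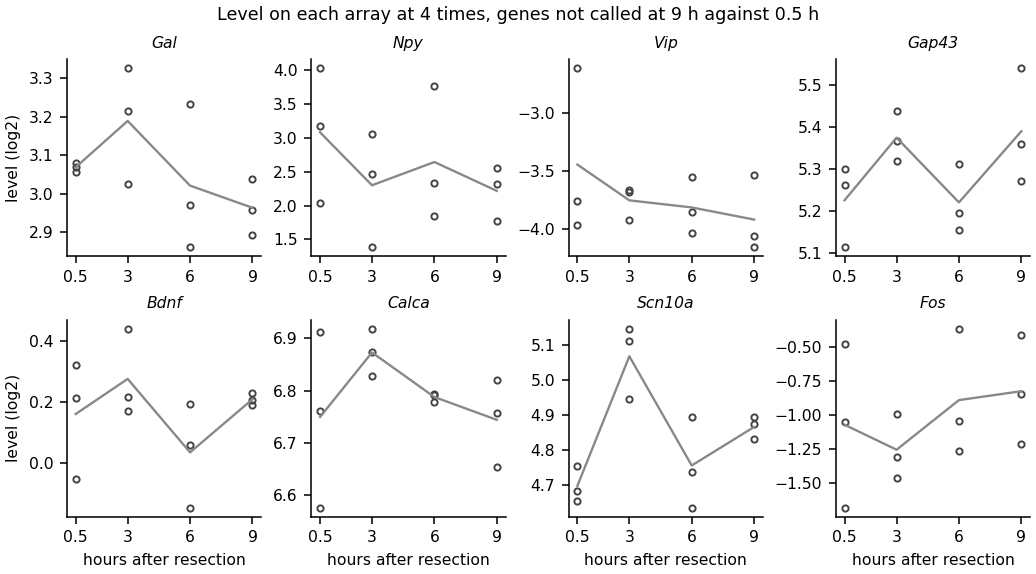
Level of 8 genes that were not called at 9 h against 0.5 h, on each array (circles, log2, 0 is the 75th percentile of an array), against hours after resection, with grey lines through the means of 3 arrays. Gal stays between 2.89 and 3.08 at 0.5 h and 9 h, and the 0.5 h arrays of Npy span 2.04 to 4.03. The vertical axes differ between panels.

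Among chemokines and inflammatory mediators most calls were rises. Of 24 tested, 8 (33.3%, against 16.9% of all genes) were called higher and 1 (4.17%, against 14.8%) lower. The median was 0.29, and 4 to 6 were called higher under the other scalings and normexp. Of those higher, 5 were chemokines, namely Ccl2, Ccl7 (1.02), Cxcl1 (1.12), Cx3cl1 (0.71) and Ccl3 (1.00). The others were the cytokines Il1b (0.73) and Csf1 (0.27) and Rel, a subunit of NF-kappaB (0.43). Cxcl1, which attracts neutrophils, was at -3.57, -4.15 and -3.74 at 0.5 h and at -2.97, -2.18 and -2.95 at 9 h (limma adjusted p = 0.0132). Cx3cl1, a membrane-bound chemokine of neurons, rose from 0.54, 0.72 and 0.44 to 1.46, 1.08 and 1.31 (limma adjusted p = 0.00115). All 9 h arrays of these genes were above all 0.5 h arrays. For Ccl3 the call was lost when any of 4 arrays was left out (adjusted p 0.0746 to 0.126). Nfkbia, the inhibitor of NF-kappaB, fell from 2.50, 2.12 and 2.33 to 1.51, 1.45 and 1.54 (difference -0.82, SE 0.09, limma adjusted p = 0.000148).

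In the interleukin-6 and STAT3 list 8 of 27 genes (29.6%, against 16.9% of all genes) were called higher and 2 (7.41%, against 14.8%) lower. The counts were equal with median scaling (4 and 4) and with normexp (2 and 2). Socs3, the feedback inhibitor of the pathway, rose from -2.99, -3.20 and -2.89 to -2.30, -2.06 and -2.05 (difference 0.89, limma adjusted p = 0.00106), and missed the threshold with normexp (adjusted p = 0.0821). Serpina3n, an acute-phase protease inhibitor, rose from 0.93, -0.17 and 0.65 to 1.65, 2.53 and 1.36. Its arrays did not overlap, but its call was lost when any of 4 arrays was left out (adjusted p 0.0598 to 0.14). Il6 itself was bright on 1 of 12 arrays and could not be compared.

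The clock and glucocorticoid lists held calls both ways, at shares near those of all genes (16.9% higher and 14.8% lower). Of 19 clock genes 4 (21.1%) were called higher and 3 (15.8%) lower, against 1 and 4 with median scaling. Dbp and Nr1d1, a nuclear receptor that represses the core clock gene Arntl, fell while Csnk1e, a clock kinase, rose by 0.54. Nr1d1 went from -1.32, -1.37 and -1.32 to -3.0, -2.06 and -3.18 (difference -1.40, limma adjusted p = 0.00145), a call lost with normexp (adjusted p = 0.118). Per1 had a wide spread at 9 h, -2.10, -1.14 and -0.91 (limma adjusted p = 0.302). Of 27 glucocorticoid targets 4 (14.8%) were higher and 5 (18.5%) lower, and those lower included Dusp1, Txnip and Nfkbia. Gadd45g led those higher. Fkbp5, the classical glucocorticoid target, was at 1.92, 1.37 and 1.88 at 0.5 h and at 1.93, 1.86 and 1.62 at 9 h, and 3.05 on average at 3 h.

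Ion channels and receptors that set excitability held calls both ways, where 16.9% of all genes were higher and 14.8% lower. Of 11 voltage-gated sodium channel genes 1 (9.09%) was higher and 1 (9.09%) lower. Scn10a, a sodium channel of nociceptors, did not pass the test (difference 0.17, limma adjusted p = 0.117). Of 27 potassium and pacemaker channel genes 5 (18.5%) were higher and 6 (22.2%) lower, against 1 and 10 with median scaling and 2 and 1 with normexp. Kcnh2, an ERG potassium channel, fell from 1.75, 1.96 and 2.05 to 1.43, 1.09 and 1.02 (difference -0.74, limma adjusted p = 0.00173). Of 35 receptors of nociceptors 8 (22.9%) were higher and 2 (5.71%) lower, a split that turned with median scaling (3 higher and 7 lower), and none was called with normexp. Bdkrb1, the inducible bradykinin receptor, rose from -4.39, -4.14 and -4.06 to -3.19, -3.14 and -3.12, at a level where the normexp call was lost (adjusted p = 0.179). Oprd1, the delta opioid receptor, fell by 0.69, a call lost with normexp (adjusted p = 0.0697). Of 14 identity factors 3 (21.4%) were higher and 1 (7.14%) lower. Among these, Tlx3 and Pou4f2 lost their call when any of several arrays was left out (adjusted p 0.0543 to 0.108 for Tlx3 and 0.114 to 0.157 for Pou4f2). In the 29 synaptic genes 6 (20.7%) were higher and 2 (6.9%) lower, against 3 and 4 with median scaling and none with normexp.

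Among cytoskeletal genes of the axon more calls were falls than rises, while the median difference of the list was 0.05 against 0.03 for all genes. Of 25 tested, 6 (24%, against 14.8% of all genes) were called lower and 1 (4%, against 16.9%) higher. Under the other scalings and normexp 2 to 10 were lower. Stmn1, a microtubule destabiliser, fell from 5.41, 5.28 and 5.34 to 4.99, 4.94 and 4.91 (difference -0.40, SE 0.06, limma adjusted p = 0.000716). Map1b, a microtubule-associated protein of growing axons, fell from 7.14, 7.02 and 7.17 to 6.72, 6.63 and 6.80, and Map2, its relative of dendrites, fell by 0.78. Both lost the call with normexp (adjusted p up to 0.074 for Map1b and 0.0864 for Map2). The 9 h arrays of these genes were below all 0.5 h arrays. Mapt, which encodes tau, was the single member called higher, at 2.70, 2.79 and 3.00 against 5.0, 3.35 and 3.58. 9 h replicate 1 stood well above the other two, and the call was lost without 0.5 h replicate 1 or 2 (adjusted p = 0.0719 and 0.0662).

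Markers of the ganglion's other cells were called at shares that differed between the lists, where 16.9% of all genes were higher and 14.8% lower. Fewer cells of a type and less RNA per cell cannot be told apart in this tissue RNA. Of 18 satellite glia genes 2 (11.1%) were higher and 3 (16.7%) lower, and of 21 Schwann cell genes 3 (14.3%) were higher and 3 lower. S100b, a glial protein that binds calcium, went from 1.07, 0.89 and 1.04 to 0.23, 0.16 and -0.08 (difference -0.90, limma adjusted p = 0.000141), but lay at -0.03 at 3 h and 1.07 at 6 h. Of 20 endothelial genes 6 (30%) were higher and 1 (5%) lower, against 3 and 4 with median scaling and none with normexp. Flt1, a VEGF receptor, rose by 0.77 and Eng, a TGF-beta co-receptor, by 0.50. Both lost the call with normexp (adjusted p = 0.253 and 0.0755). Of 20 macrophage genes none was called higher by limma (1 at an unadjusted p under 0.05) and 1, C1qb, was lower (-0.50), a call lost without 0.5 h replicate 1 (adjusted p = 0.0688) or 9 h replicate 3 (adjusted p = 0.073). Of 8 oligodendrocyte genes 1 (12.5%) was higher, and of 6 lymphocyte genes 2 (33.3%) were higher.

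Skeletal muscle and fat genes, which mark tissue next to the ganglion, varied widely between single arrays. With the scaling used, all 24 muscle genes tested had a positive difference, from 0.02 to 1.42 with a median of 0.88 (0.77 to 0.91 under the other scalings and normexp), yet none was called by limma, and none had an unadjusted p under 0.05. The count was also 0 with the trend and robust variance. Averaged over the list and centred on each gene's mean, the arrays stood at -0.90, -1.19 and -0.17 at 0.5 h and at 0.75, 0.34 and -0.85 at 9 h, which overlap. At 3 h and 6 h they spanned -1.05 to 1.93. Of 11 fat genes 3 (27.3%, against 16.9% of all genes) were called higher. The array averages of the fat list were -0.66 to -0.39 at 0.5 h and -0.45 to 0.78 at 9 h. Of 9 neutrophil genes 1 (11.1%) was higher, with averages of -0.57 to 0.08 at 0.5 h and -0.02 to 0.57 at 9 h. Of 8 red blood cell genes none was called by limma, with 0 at an unadjusted p under 0.05. The part of adhering tissue or blood in the other results was not tested.

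Stress and housekeeping lists held calls both ways, where 16.9% of all genes were higher and 14.8% lower. Of 24 heat shock genes 4 (16.7%) were higher and 4 (16.7%) lower, near the shares of all genes. Hsp90ab1, a constitutive chaperone and one of the brightest genes, fell from 6.71, 6.80 and 6.65 to 6.08, 6.08 and 6.23 (difference -0.59, SE 0.06, limma adjusted p = 0.000128), though 1 of 2 other probes of the gene moved the other way. Of 24 Nrf2 target genes 4 (16.7%) were higher and 1 (4.17%) lower, and of 33 amino acid and ER stress genes 2 (6.06%) and 5 (15.2%). Of 32 cholesterol genes 8 (25%) were higher and 3 (9.38%) lower. Of 31 glycolysis and hypoxia genes 5 (16.1%) were higher and 2 (6.45%) lower, and of 43 oxidative phosphorylation genes 4 (9.3%) and 4 (9.3%). Of 65 ribosomal protein genes 15 (23.1%) were higher and 7 (10.8%) lower, and of 34 proteasome genes 2 (5.88%) and 2 (5.88%). With median scaling the split turned to more falls in the Nrf2 (2 higher and 3 lower), cholesterol (1 and 4), glycolysis (2 and 6) and ribosomal protein (2 and 15) lists. The same scaling gave more falls in the heat shock (0 and 5), amino acid and ER stress (1 and 10), oxidative phosphorylation (1 and 12) and proteasome (0 and 10) lists. With normexp 1 ribosomal and 1 cholesterol gene were lower and none higher. Of 25 interferon response genes only Irf1 was called, and the list's median was -0.25. Its array averages were 0.27, 0.0091 and -0.09 at 0.5 h and 0.34, -0.02 and -0.66 at 9 h, so that 9 h replicate 3 alone lay below the 0.5 h arrays by more than their spread. Of 27 cell cycle genes 5 (18.5%) were higher and 1 (3.7%) lower, and of 30 cell death genes 4 (13.3%) and 3 (10%). Of 40 growth factor signalling genes 7 (17.5%) were higher and 6 (15%) lower, and of 40 matrix genes 2 (5%) and 4 (10%). With median scaling the cell death list had 2 higher and 5 lower, the growth factor list 3 and 9, the cell cycle list 2 and 2 and the matrix list 1 and 8. No cell cycle gene was called with normexp. Spry4, an inhibitor of growth factor signalling, fell from -0.40, -0.38 and -0.36 to -1.13, -1.42 and -1.53 (difference -0.98, limma adjusted p = 4.85e-05).

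**Figure D4:**
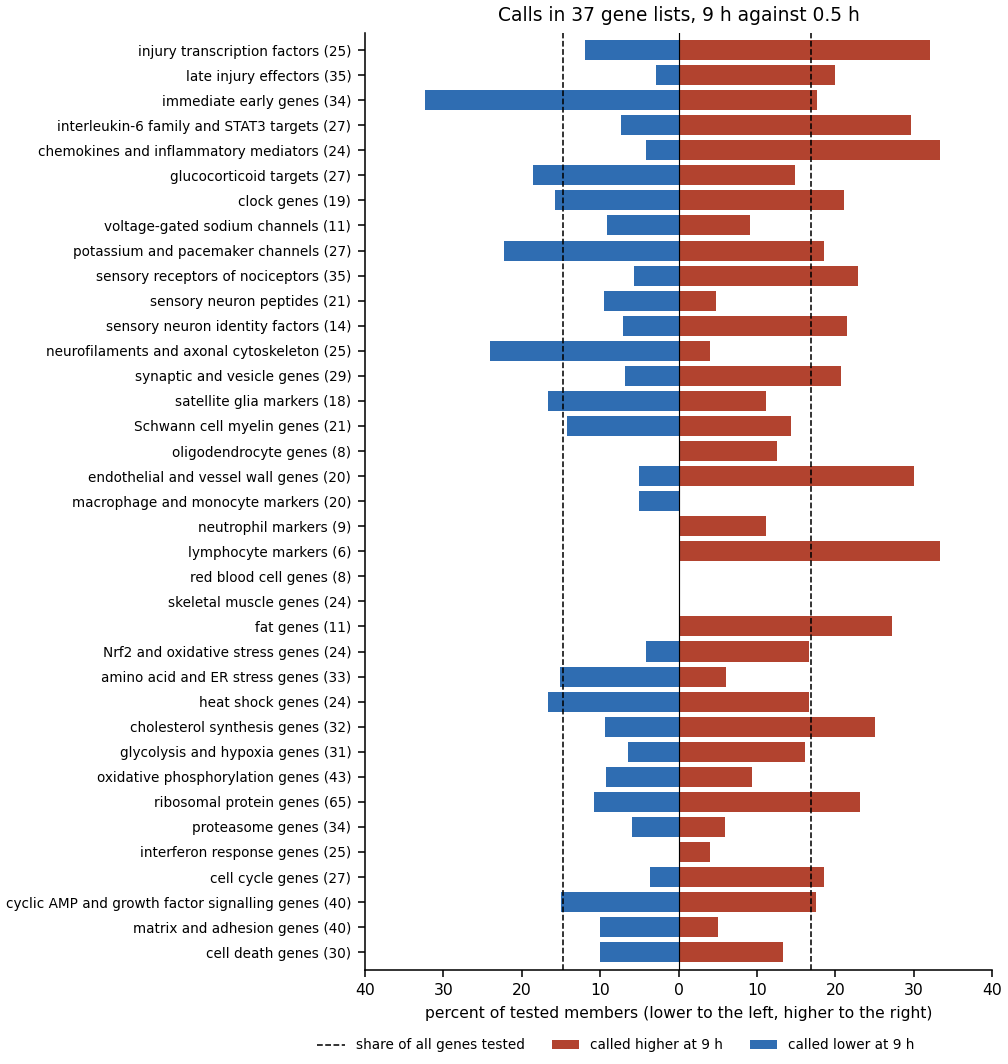
Percent of tested members called higher (red, to the right) and lower (blue, to the left) at 9 h against 0.5 h in 37 gene lists, with the number tested in brackets; dashed lines mark the shares of all genes, 16.9% higher and 14.8% lower. Immediate early genes have the longest bar to the left, at 32.4%.

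The rises and falls followed different courses over the intermediate times. Over all 3619 genes called higher, the median gene had made 0.46 of its change by 3 h and 0.26 by 6 h. Over all 3178 called lower these were 0.87 and 0.50, and over all genes tested 0.62 and 0.42. At 3 h 17.4% of the higher and 42.1% of the lower genes were further from 0.5 h than at 9 h, against 36.3% of all genes. Among 27 genes called higher at least 2-fold at a level of -2 or more, the median gene had made 0.09 of its change by 3 h and 0.36 by 6 h. Among 122 genes called lower by the same rule, the median gene had made 1.12 of its change by 3 h but 0.16 by 6 h. Of these 122, 87 (71.3%) were further down at 3 h than at 9 h. Of all 14253 genes at a level of -2 or more, 37.3% were further from 0.5 h at 3 h than at 9 h. Their median gene had made 0.67 of its change by 3 h and 0.48 by 6 h. Each fraction of the called genes takes its change from the same 0.5 h and 9 h arrays that chose the genes. S100b, with a smaller fall, had the same order, low at 3 h, near its 0.5 h level at 6 h and low again at 9 h. The 3 h arrays were on 1 slide and the 6 h arrays on 2 others, scanned on 1 day, and the part of the slide in this pattern was not tested.

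The split of calls varied with the level of the gene. Below a level of -4, 22.5% of 948 genes were called higher and 23.1% lower. Between a level of -4 and -3, 26.0% of 3160 genes were called higher and 11.7% lower, whereas of 4054 genes at 2 or more 9.94% were higher and 13.7% lower. Of 160 olfactory receptor genes (Olr), chosen after their values were seen, 84 (52.5%) were called higher, at a median level of -3.4, and 15 (9.38%) lower. Background moved with the same comparison, since 5555 probes were well above background on all 9 h arrays and no 0.5 h array, against 1 probe the other way round. The part of the background in these calls was not tested. With normexp the median difference of the Olr genes was 0.89, against 0.70 as reported. Below a level of -4 the median difference was 0.58 with normexp and -0.03 as reported. Between -4 and -3 it was 0.57 and 0.14, and at 2 or more -0.12 and -0.01. Several of the largest changes at dim levels lost their call with normexp. The rises of Map6d1, Acer1, a ceramidase, and Rasal1, a Ras inhibitor, were 1.59, 1.49 and 1.47 and kept most of their size with normexp, at 1.43, 1.35 and 1.30 (adjusted p = 0.104, 0.147 and 0.143). The falls of Rgs1, an inhibitor of G protein signalling, Gclm, a subunit of the glutathione-making ligase, and Ccl11, a chemokine for eosinophils, were -2.13, -1.83 and -1.53 and became -0.47, -0.041 and -0.41 with normexp (adjusted p = 0.644, 0.968 and 0.507). Of 14253 genes at a level of -2 or more 4293 (30.1%) were called, 2064 (14.5%) of them higher and 2229 (15.6%) lower.

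**Figure D5:**
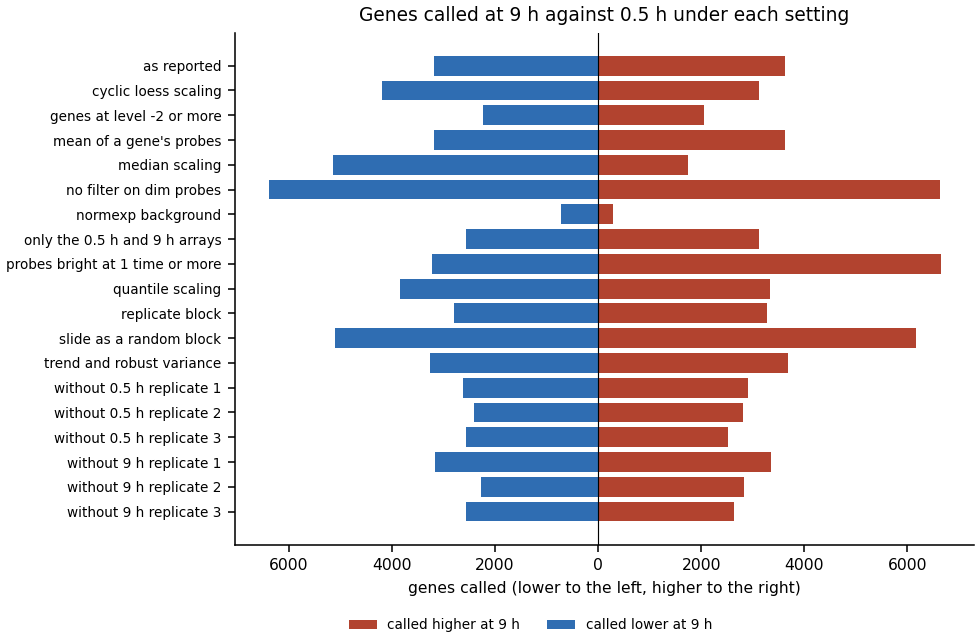
Number of genes called higher (red, to the right) and lower (blue, to the left) at 9 h against 0.5 h as reported and under each alternative. The normexp background correction gives the fewest calls, 282 higher and 723 lower, and the median scaling moves the split towards lower, at 1750 and 5133.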

How the data were processed

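Total RNA of lumbar ganglia was labelled with Cy3 and hybridised to 1-colour Agilent arrays, per the labels' protocols. The deposited values are linear spot intensity, from which Feature Extraction 10.5.1.1 had subtracted background, per the file headers; later steps are not given in the sources used here. Control and outlier spots were left out, and 66 tested genes lacked a value on an array for that reason. The log2 intensity minus each array's 75th percentile was used for probes well above background on all 12 arrays (25450 of 41012), with the brightest probe per gene name. The 4 group means over the 12 arrays were estimated in limma (version 3.58.1, under R 4.3.3) by lmFit and eBayes, and p-values were adjusted by Benjamini-Hochberg over 21477 genes. The fit was tested on simulated data.

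Named genes were the 12 largest called rises and falls without overlap, up to 4 called members per list and genes of interest. The members, lists and named-gene rules were chosen with earlier results of these data known. Current symbols matched 39.8% of probes. With 3 arrays per time, precision is limited by their number. Alternatives were other scalings, background correction, filters, probe rules, variance models, blocks and leaving out each array. The result of 1 further gene is not reported here.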

Additional observations from a re-analysis of the deposited data

How the results depend on the processing

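As reported, 6797 genes were called, 3619 higher and 3178 lower. Totals moved by more than 1.5 times with normexp (1005), no filter on dim probes (13021), slide as a random block (11253) and genes at level -2 or more (4293, added after the data were seen). Higher calls were 1750 with median scaling, 282 with normexp, 6642 with probes bright at 1 time or more, 6633 without a filter, 6162 with the slide block and 2064 at level -2 or more. Lower calls were 5133 with median scaling, 723 with normexp, 6388 without a filter and 5091 with the slide block. Of all calls 53.2% were higher as reported, 25.4% with median scaling, 28.1% with normexp, 42.6% with cyclic loess and 67.4% with probes bright at 1 time or more. Leaving out 1 array gave 5076 to 6512 calls. The consensus correlation within slides was negative (-0.22), which loosens that test. Signs turned for Nr1d2 (0.49), Vip (0.27), Gap43 (-0.061) and Fkbp5 (-0.0314) with normexp, Bdnf (-0.0672) and Fkbp5 (-0.0311) with median scaling, Calca with quantile (0.0799) and cyclic loess (0.0107) scaling, and Itgb1 (-0.0701) and Stat3 (0.00462) with the mean of probes. Leaving out 1 array moved Fos between -0.0593 and 0.545, Fkbp5 between -0.0925 and 0.182, Bdnf between -0.058 and 0.129 and Calca between -0.0925 and 0.0759. The cause was not tested. Replicate numbers did not pair the arrays (correlations of deviations 0.052, -0.021 and -0.009), and the replicate block gave 6077 calls. Fewer spots were well above background at 0.5 h, where dim genes have only a bound.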

Other observations

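List genes that were not well above background on the 0.5 h arrays have only a bound. For the bound, each 0.5 h array was given its dimmest signal still well above background, or the probe's own signal where that was brighter, and the 9 h mean was set against the mean of these. No test is given, since these genes would enter one only through the times at which they were bright. Genes chosen in this way could show only a rise. The bound makes no allowance for the spread between arrays. Ankrd1, an ankyrin repeat protein of muscle that is also induced by nerve injury, had a bound of 2.86-fold at 9 h. Cxcl2, a neutrophil chemokine, had a bound of 1.62-fold. For Mrgprb5, a receptor of the Mrgpr family, the bound was 1.88-fold. Ucp3 and Cidec, genes of muscle and fat, had bounds of 2.98-fold and 2.62-fold, beside the array averages of muscle and fat genes given above. Tnf, Il11 and Slc7a11 were not well above background on any of the 12 arrays.

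Other probes of called genes gave the same direction in 76.5% of 533 cases for genes called higher and in 64.1% of 540 cases for genes called lower. Of these probes 29 were called lower where the reported probe was higher, and 47 were called higher where it was lower.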
